A study of Homo sapiens with 9 samples.

Results

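The solute carrier (SLC) genes outside the amino acid transporter subfamilies were examined in HEK293 cells, a line made from human embryonic kidney, after a hairpin RNA against AMOT or against YAP1. Members were all genes whose symbol starts with SLC and a digit, without SLC1A, SLC3A, SLC7A, SLC38A and SLC43A and without antisense, divergent or overlapping transcripts named after a carrier. A probe entered when 3 or more of the 9 arrays gave it a detection p-value, which sets its signal against the negative control beads, below 0.05. By this rule 243 of 244 annotated probes entered, for 190 genes, out of 22375 tested probes and 11493 named genes of the series. The SLC25A genes, the mitochondrial carriers, made up 34 of the 190 genes, and 156 lay outside them. The symbol rule also took 6 genes that are no carriers, namely 4 that the reference table lists as pseudogenes (SLC6A10P, SLC25A51P4, SLC71A3P and SLC35E2A), SLC2A4RG, a DNA-binding protein, and SLC4A1AP, an adaptor protein. The gene names came with the authors' own filtered table, so a carrier with no probe there was not analysed here. That holds for 12 of the 61 carrier genes listed for their roles, among them the lactate carriers SLC16A1 and SLC16A3, the nucleoside carrier SLC29A1 and the vesicular glutamate, monoamine, acetylcholine and GABA carriers.

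Each group had 3 bead arrays of total RNA. AMOT-hairpin cells are HEK293 with a hairpin written as Amot shRNA, titled Angiomotin knockout. YAP-hairpin cells are HEK293 with a hairpin written as Yap shRNA, titled Yap knockout. The controls are wild-type HEK293 cells, with no control hairpin named. The design text calls the hairpin groups knockdowns, and the groups are called AMOT-hairpin and YAP-hairpin cells here. Hairpin sequences, their delivery and the number of clones were not stated in what was used here, so what belongs to a hairpin, a clone or a selection cannot be told apart from the loss of its target. AMOT encodes angiomotin, a junctional scaffold that binds YAP, and YAP1 encodes the transcriptional coactivator YAP, which acts through TEAD factors.

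Solute carriers move sugars, organic acids, ions, metals, nucleotides and vitamins across membranes without splitting ATP themselves. Those of the SLC25A family sit for the most part in the inner mitochondrial membrane and exchange nucleotides, phosphate, tricarboxylic acid cycle intermediates and cofactors between matrix and cytosol. The other families work for the most part at the plasma membrane or in the endoplasmic reticulum, Golgi apparatus, endosomes and lysosomes. Several of them draw on the sodium or proton gradient.

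The target genes followed the labels. AMOT had log2 levels of 9.94, 10.05 and 10.21 on the AMOT-hairpin arrays, against 14.33, 14.32 and 14.21 on the controls, and 13.66, 13.72 and 13.76 on the YAP-hairpin arrays, where it was called lower too, by 0.57. YAP1 had 8.79, 8.79 and 8.93 on the YAP-hairpin arrays, against 10.63, 10.71 and 10.64 on the controls, and 10.48, 10.52 and 10.74 on the AMOT-hairpin arrays, where it was not called. Between 19831 and 22187 probes were detected per array, with all 6 hairpin arrays above the controls. Of the 7 embryonic kidney markers, EYA1 and WT1 had a tested named probe. The 4 epithelial markers KRT8, KRT18, CDH1 and EPCAM were tested, none of the 5 blood or 5 endothelial markers was, and of the 5 fibroblast markers COL1A1 and LUM were, with LUM detected on 1 control array. EYA1 and KRT8 were higher in AMOT-hairpin cells by 0.64 and 0.68 on the log2 scale, EPCAM by 1.32 and LUM by 0.73, while WT1 and CDH1 fell by 0.49 and 0.94. In YAP-hairpin cells KRT8 rose by 1.28, and WT1 and CDH1 fell by 1.08 and 0.99. The part of these shifts in the carrier results was not tested.

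Levels below are log2 intensities after background correction and quantile normalization, on which probes fell below detection at 5.77 to 5.99 depending on the array. A gene stands for its brightest tested probe, and a level says nothing against that of another gene. Changes are log2 differences with the standard error (SE) of limma's fit (n = 3 arrays per group), and a gene is called higher or lower at a Benjamini-Hochberg adjusted p under 0.05 over all 22375 probes. The design text says that each group was sampled in 3 separate experiments, without saying how these differed. The p-values rest on the spread between arrays within a group, pooled over the 3 groups and moderated by limma across probes.

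In AMOT-hairpin cells 45 carrier genes were higher and 36 lower than in the controls, and 109 were not called. This is 23.7% higher and 18.9% lower, beside 22% and 19% of all named genes, so the share of called carriers was close to that of other genes. In YAP-hairpin cells 41 were higher and 25 lower, which is 21.6% and 13.2%, beside 24.3% and 19.9% of all named genes. Between the hairpin groups 12 genes were higher and 28 lower in AMOT-hairpin than in YAP-hairpin cells, which is 6.32% and 14.7%, beside 10.3% and 12%. With a gene undetected in the dimmer group taken at its lower bound, 10 called genes changed at least 2-fold in AMOT-hairpin cells, 11 in YAP-hairpin cells and 6 between them. The share of all named genes that changed so was not counted, so these numbers cannot be set against other genes. Both hairpin groups are set against the same 3 controls. None of the 6 genes that are no carriers was called by limma in AMOT-hairpin cells, nor had an unadjusted p under 0.05, and SLC25A51P4 alone was called in YAP-hairpin cells (-0.52, limma adjusted p = 0.026).

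The carrier with the largest fall in each hairpin group, by brightest probes, was SLC19A1, the reduced folate carrier of the plasma membrane. Its log2 levels were 5.38, 5.71 and 5.40 in AMOT-hairpin cells, undetected on all 3 arrays, and 5.81, 5.84 and 6.23 in YAP-hairpin cells, detected on 1 array, against 7.69, 7.68 and 8.16 in the controls. No hairpin array reached the lowest control. The gene was at least 4.01-fold lower in AMOT-hairpin cells, and its change in YAP-hairpin cells was -1.88 (SE 0.17). It passed the filter through the controls and 1 YAP-hairpin array, so both falls follow in part from the filter. They are given without a test. SLC19A2, a thiamine carrier, stood at -0.04 and 0.23 in AMOT- and YAP-hairpin cells, and SLC46A1, the proton-coupled folate carrier, at 0.06 and 0.08, none of them called. The carrier for folate in mitochondria, SLC25A32, fell by 0.66 in AMOT-hairpin cells and by 0.61 in YAP-hairpin cells on the log2 scale. It was dim, with levels of 5.87, 5.48 and 5.83 in AMOT-hairpin cells and 5.67, 5.92 and 5.75 in YAP-hairpin cells, against 6.35, 6.46 and 6.35 in the controls. Both hairpin-group means were below detection, which leaves the size of either fall uncertain.

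The members at the top of each comparison with a sequence at hand were SLC19A1, SLC6A16 and SLC8A2, and the 250 bases before the starts that the promoter table gives first are shown because these genes carry the largest changes in the groups. They are RefSeq sequences of GRCh38.p14, written 5′ to 3′ along the gene, all on the minus strand, at chr21:45563026-45563275 for SLC19A1, chr19:49325192-49325441 for SLC6A16 and chr19:47471894-47472143 for SLC8A2. Capitals mark CATTCC or its reverse complement GGAATG, the core letters of the TEAD motif, and the palindrome CACGTG, the E-box, neither of which overlaps the other here. The start used for SLC6A16 lies inside the span of the gene, not at its outermost end, and SLC19A1 has further starts in the table that were not examined.
SLC19A1: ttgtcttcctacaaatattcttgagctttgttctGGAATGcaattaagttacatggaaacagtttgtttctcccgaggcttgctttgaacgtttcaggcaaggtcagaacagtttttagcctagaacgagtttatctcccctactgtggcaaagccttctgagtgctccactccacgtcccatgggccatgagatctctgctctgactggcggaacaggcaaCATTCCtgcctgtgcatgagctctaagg
SLC6A16: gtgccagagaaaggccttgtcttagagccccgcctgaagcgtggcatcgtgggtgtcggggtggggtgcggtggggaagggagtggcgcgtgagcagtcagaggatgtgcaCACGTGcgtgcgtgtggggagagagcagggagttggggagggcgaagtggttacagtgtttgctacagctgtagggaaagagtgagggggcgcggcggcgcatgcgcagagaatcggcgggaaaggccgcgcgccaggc
SLC8A2: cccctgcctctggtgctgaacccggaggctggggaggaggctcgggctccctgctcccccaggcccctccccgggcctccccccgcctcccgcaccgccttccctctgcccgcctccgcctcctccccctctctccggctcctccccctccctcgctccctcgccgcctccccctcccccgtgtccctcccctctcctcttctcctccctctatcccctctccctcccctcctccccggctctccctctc
The SLC19A1 window held the TEAD letters at 2 places, 216 and 28 bases before the start, that of SLC6A16 an E-box 139 bases before the internal start used, and that of SLC8A2 neither. Over the 160 members with a sequence, 16 windows held the TEAD letters, beside 11.9% of 27305 promoters in the table. The E-box was in 15 (9.38%), beside 6.49% of all promoters, and in 6 of the 29 SLC25A windows. Of the members called lower in YAP-hairpin cells 2 of 20 windows held the TEAD letters, and of those called higher 2 of 35. These are matches of letters in a short window and no binding was measured.

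**Figure D1:**
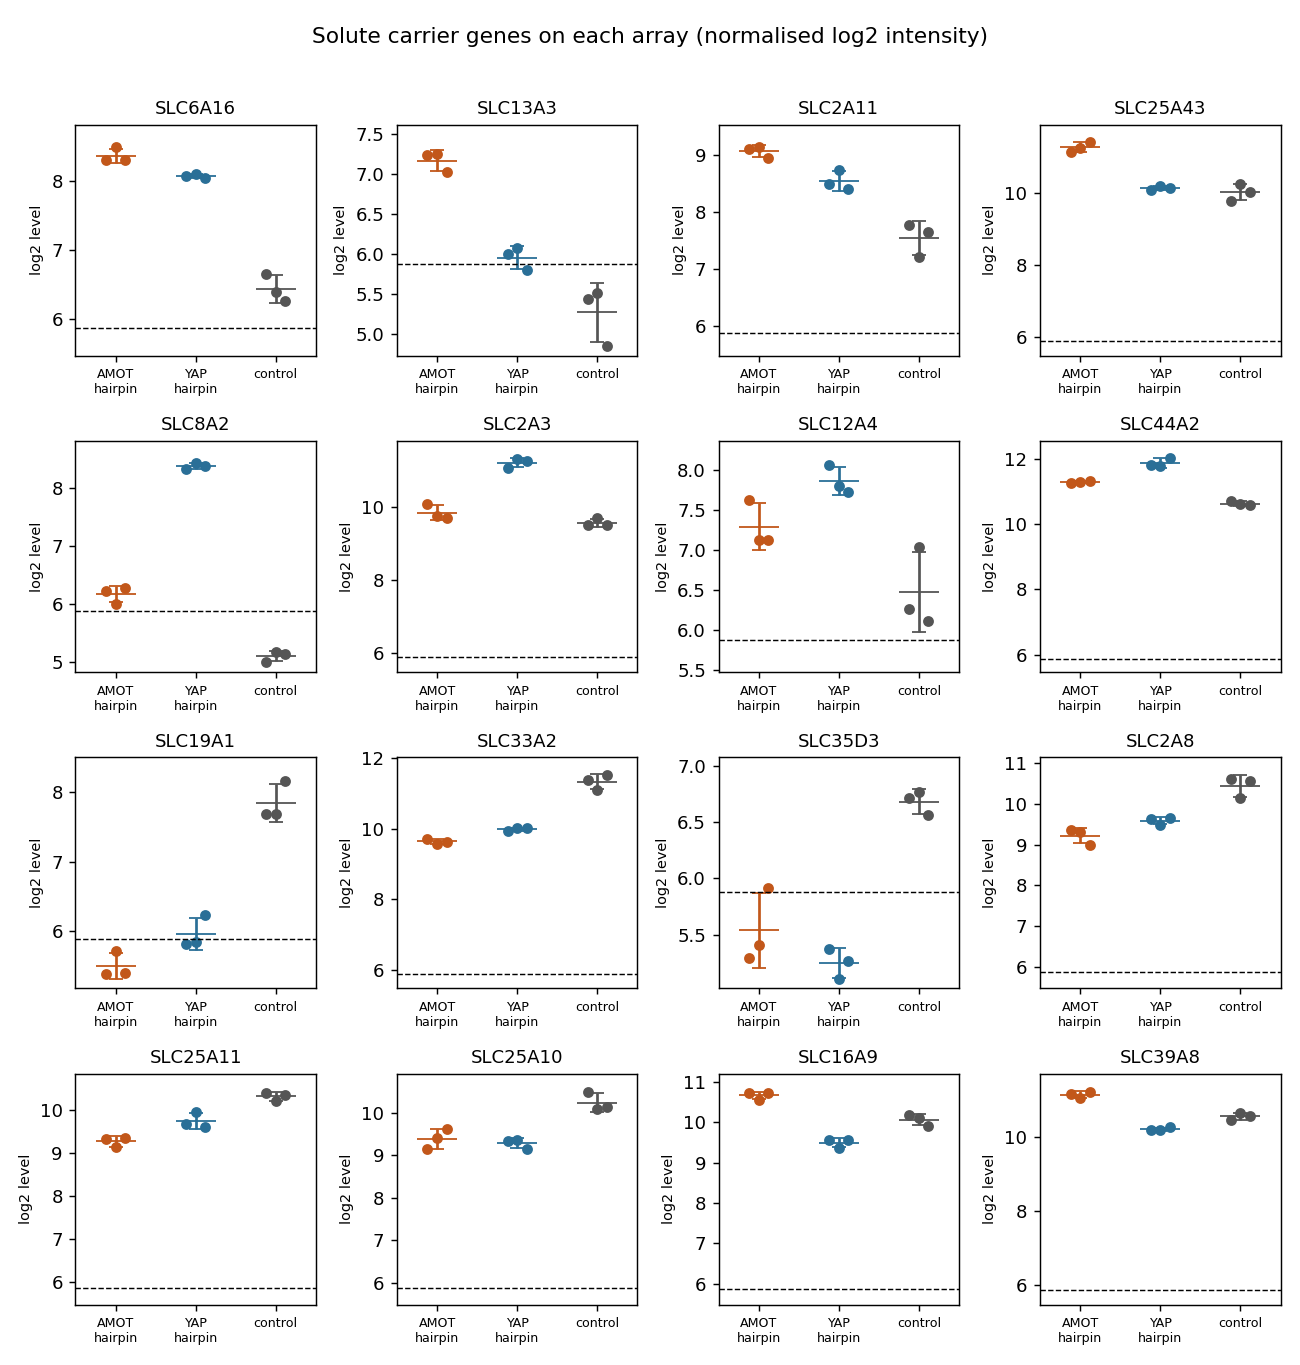
Normalised log2 intensity of 16 solute carrier genes on each array (points), with the group mean and its standard deviation (bars, n = 3), for AMOT-hairpin cells, YAP-hairpin cells and the controls. The dashed line is the mean limit of detection over the arrays. SLC8A2 lies under it in the controls and SLC19A1 in AMOT-hairpin cells, and SLC16A9 and SLC39A8 lie above the controls in AMOT-hairpin cells and below them in YAP-hairpin cells.

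Among the 34 SLC25A genes, the pseudogene SLC25A51P4 included, 5 were higher and 6 lower in AMOT-hairpin cells, and 3 were higher and 6 lower, that pseudogene among them, in YAP-hairpin cells. In percent this is 14.7% and 17.6% in AMOT-hairpin cells and 8.82% and 17.6% in YAP-hairpin cells. Of all named genes 22% and 19% were called so in AMOT-hairpin cells, and 24.3% and 19.9% in YAP-hairpin cells. Outside SLC25A, 40 of 156 genes were higher and 30 lower in AMOT-hairpin cells (25.6% and 19.2%), and 38 were higher and 19 lower in YAP-hairpin cells (24.4% and 12.2%). The SLC25A median change was -0.08 in AMOT-hairpin cells and 0.01 in YAP-hairpin cells, that of the other carriers 0.08 and 0.05, and that of all named genes 0.01 and 0.03. The SLC25A medians rest on single arrays: that of AMOT-hairpin cells was -0.01 without control array 2 or AMOT-hairpin array 3, and that of YAP-hairpin cells was -0.03 without control array 1 and 0.05 without YAP-hairpin array 2. The per-array median of SLC25A levels ran from 9.74 to 9.86 in AMOT-hairpin cells, from 9.68 to 9.90 in YAP-hairpin cells and from 9.82 to 9.995 in the controls, so the 3 ranges overlapped. The difference between the families was not tested.

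Besides SLC25A32, the mitochondrial carriers called lower in AMOT-hairpin cells were SLC25A11, SLC25A10, SLC25A15, SLC25A39 and SLC25A13. SLC25A11, the oxoglutarate-malate carrier of the malate-aspartate shuttle, had levels of 9.32, 9.13 and 9.35 in AMOT-hairpin cells and 9.67, 9.96 and 9.61 in YAP-hairpin cells, against 10.39, 10.20 and 10.35 in the controls. Its change was -1.05 in AMOT-hairpin cells (SE 0.12, limma adjusted p = 1.9e-04) and -0.57 in YAP-hairpin cells, and the hairpin groups differed, by -0.48 (limma adjusted p = 0.025). SLC25A10, which exchanges malate or succinate for phosphate, had levels of 9.15, 9.42 and 9.61 in AMOT-hairpin cells and 9.34, 9.36 and 9.15 in YAP-hairpin cells, against 10.49, 10.09 and 10.14 in the controls. Every hairpin array of both genes lay below every control, with SLC25A10 down by 0.85 and 0.96 on the log2 scale. SLC25A15, the ornithine carrier of the urea cycle, fell by 0.60 and 0.33, and its other probe by 0.97 and 0.71. The citrate carrier SLC25A1 fell by 0.47 in YAP-hairpin cells and stood at -0.36 in AMOT-hairpin cells (adjusted p = 0.053). SLC25A39, which brings glutathione into mitochondria, fell in AMOT-hairpin cells, with 13.02, 13.22 and 13.26 against 13.67, 13.54 and 13.75 in the controls. In YAP-hairpin cells it had 13.75, 13.78 and 13.76, and the difference between the hairpin groups was -0.60 (limma adjusted p = 0.0041). The aspartate-glutamate carrier SLC25A13 fell by 0.25 in AMOT-hairpin cells and its partner SLC25A12 stood at -0.16.

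The mitochondrial carrier with the largest rise was SLC25A43, a member with no agreed substrate. It had 11.15, 11.24 and 11.42 in AMOT-hairpin cells, against 9.79, 10.26 and 10.04 in the controls, a change of 1.24 (SE 0.13, limma adjusted p = 1.2e-04), and 10.09, 10.21 and 10.14 in YAP-hairpin cells. YAP-hairpin cells lay among the controls, and the hairpin groups differed by 1.13 (limma adjusted p = 6.1e-04). Its dimmer probe stood at 0.50 in AMOT-hairpin cells and was not called. SLC25A5, an adenine nucleotide carrier also on chromosome X, had 15.83, 15.81 and 15.84 in AMOT-hairpin cells and 15.90, 15.89 and 15.72 in YAP-hairpin cells, against 15.76, 15.86 and 15.75 in the controls. These values overlap, and near-identical copies of this gene may share its signal. The heart and muscle form SLC25A4 stood at 0.08 and -0.10, with its dimmer probe called lower in YAP-hairpin cells, at -0.38. The phosphate carrier SLC25A3 stood at 0.22 and 0.26 by its brightest probe and was higher by 0.46 and 0.52 by the next. SLC25A37, the mitochondrial iron importer, rose by 0.61 in AMOT-hairpin cells, and SLC25A38, which serves haem synthesis, by 0.44 and, in YAP-hairpin cells, 0.59. The other iron importer, SLC25A28, stood at 0.12 and 0.30 and was not called. SLC25A42, a coenzyme A carrier, rose by 0.57 and 0.65, and the dim SLC25A45 by 0.80 and 0.82 with a control mean under the limit of detection. SLC25A51, which brings NAD into mitochondria, ranged from 13.49 to 14.56 over the controls alone and was not called.

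**Figure D2:**
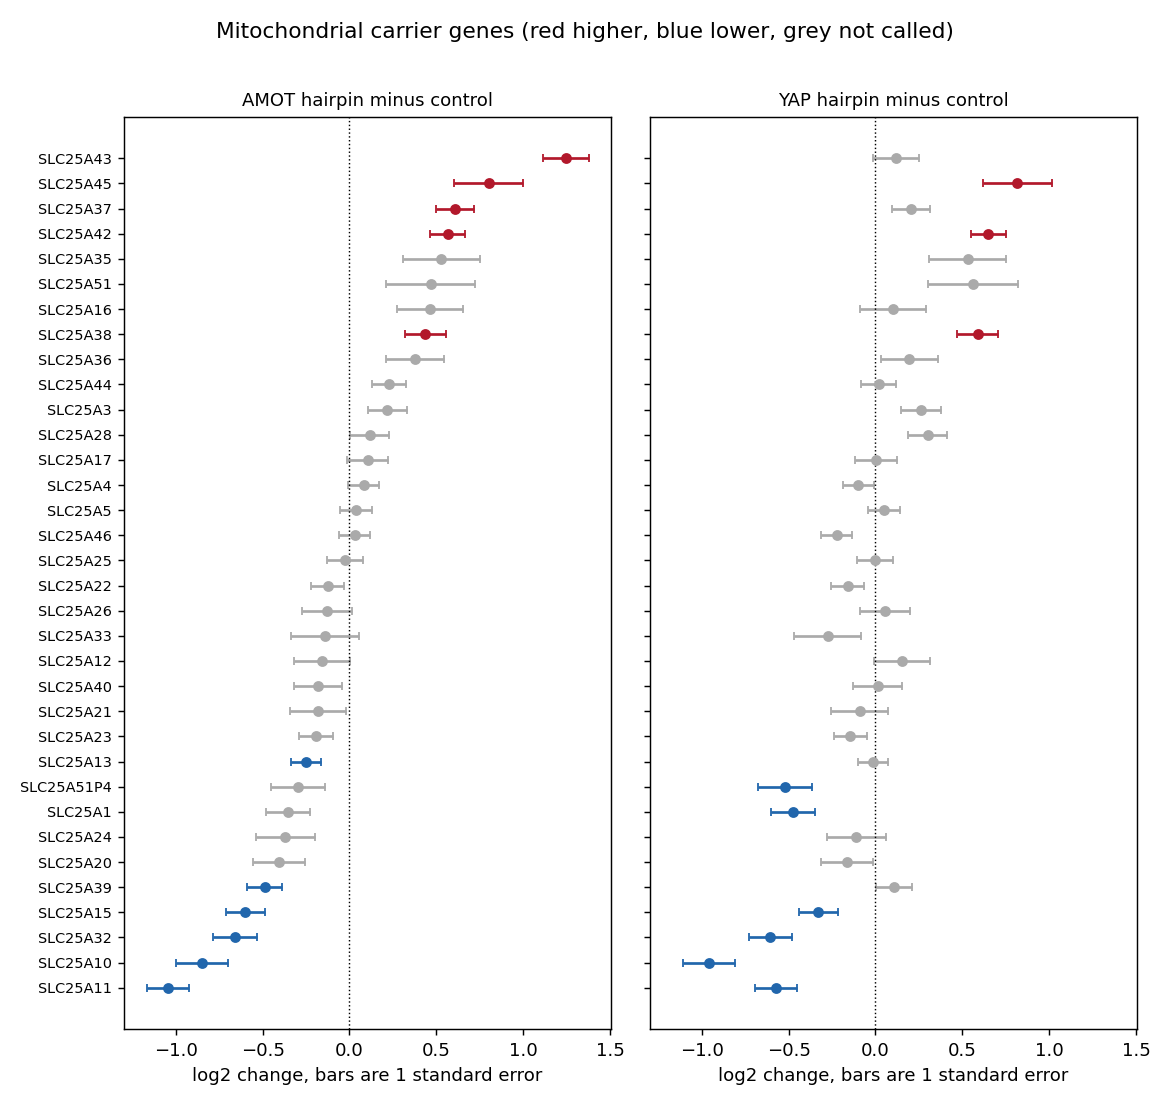
Log2 change of each of the 34 SLC25A genes in AMOT-hairpin cells and in YAP-hairpin cells against the same 3 controls, with 1 standard error, ordered by AMOT-hairpin cells. SLC25A43 is at the top of the AMOT panel at 1.24 and near 0 in the YAP panel at 0.12, and SLC25A11 and SLC25A10 lie left of 0 in both.

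Genes of the route by which carriers enter the inner membrane, and their outer membrane neighbours, numbered 16 tested of 17. In AMOT-hairpin cells 1 was higher and 4 were lower, beside 22% and 19% of all named genes, with a median of -0.15. In YAP-hairpin cells 2 were higher and 6 lower, beside 24.3% and 19.9%, with a median of -0.22. The pyruvate carrier subunit MPC1, which belongs to another family, had 12.996, 12.74 and 12.85 in AMOT-hairpin cells and 13.11, 13.24 and 13.21 in YAP-hairpin cells, against 13.79, 13.77 and 13.77 in the controls. It fell by 0.92 and 0.59 on the log2 scale, and its partner MPC2 by 0.41 and 0.31. TOMM70, the import receptor for carriers, and TIMM10, a chaperone between the membranes, fell in YAP-hairpin cells by 0.55 and 0.58, and stood at -0.17 and -0.09 in AMOT-hairpin cells. TIMM9, which works with TIMM10, rose by 0.42 and 0.38. TIMM8B fell by 0.47 and 0.52, and AGK fell by 0.41 in YAP-hairpin cells. MTCH1 was called lower in AMOT-hairpin cells, at -0.35, and higher in YAP-hairpin cells, at 0.57. For MTCH1 the hairpin groups differed by -0.93 (limma adjusted p = 3.1e-04).

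Carriers and exchangers of inorganic ions were called higher more often than lower. Of 25 such genes 12 were higher and 2 lower in AMOT-hairpin cells (48.0% and 8.0%, beside 22% and 19% of all named genes), with a median change of 0.29. In YAP-hairpin cells 10 were higher and none lower by limma (none lower at an unadjusted p under 0.05 either), which is 40.0% higher beside 24.3% of all named genes, where 19.9% were lower, with a median of 0.22. The group was put together with these values known, so it is a description. Within it 6 of the 8 sodium-proton exchanger (SLC9) genes were higher in AMOT-hairpin cells and 4 in YAP-hairpin cells. The genes counted as higher include SLC8A2 in both hairpin groups and SLC9A9 in YAP-hairpin cells, each undetected in the controls. Both genes passed the filter through hairpin arrays alone, so these calls follow in part from the filter.

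SLC8A2, a sodium-calcium exchanger known mainly from brain, had the largest rise in YAP-hairpin cells. Its levels were 6.23, 6.0 and 6.27 in AMOT-hairpin cells and 8.32, 8.44 and 8.37 in YAP-hairpin cells, against 5.0, 5.18 and 5.13 in the controls, where it was undetected. It was at least 5.38-fold higher in YAP-hairpin cells and at least 1.16-fold higher in AMOT-hairpin cells. The gene passed the filter through the hairpin arrays alone, so these differences from the controls follow in part from the filter. They are given without a test. The hairpin groups differed by -2.21 (SE 0.10, limma adjusted p = 5.0e-06). No array of any group overlapped another group. SLC12A4, a potassium-chloride cotransporter that lets cells shed volume, had 7.63, 7.12 and 7.12 in AMOT-hairpin cells and 8.05, 7.80 and 7.72 in YAP-hairpin cells, against 6.26, 7.04 and 6.11 in the controls, changes of 0.82 and 1.39. Its neuronal relative SLC12A5, dim in all groups, rose by 0.64 in YAP-hairpin cells, and the inward chloride cotransporter SLC12A2 fell by 0.46 in AMOT-hairpin cells, its other probe standing at -0.29.

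Among the proton exchangers SLC9A5 rose by 0.70 in AMOT-hairpin cells and 0.87 in YAP-hairpin cells, and the Golgi exchanger SLC9A8 by 0.87 in AMOT-hairpin cells, with 8.13, 7.70 and 7.98 against 6.83, 7.11 and 7.26 in the controls. The endosomal SLC9A9 was undetected in the controls, at least 1.25-fold higher in YAP-hairpin cells, and under the limit of detection on average in AMOT-hairpin cells too. It passed the filter through hairpin arrays alone, so its higher level in YAP-hairpin cells follows in part from the filter. That level is given without a test. Of the bicarbonate carrier family, the anion exchanger SLC4A2 rose by 0.57 and 0.67 and SLC4A5 by 0.60 and 0.63, and SLC4A4 by 0.73 in AMOT-hairpin cells. SLC4A7 stood at -0.06 and 0.14 and SLC4A11 at -0.04 and -0.15 by their brightest probes, none of them called. The other probe of SLC4A7 was called lower in AMOT-hairpin cells, at -0.44. The phosphate carrier SLC20A2 rose by 0.88 and 0.49. Its relative SLC20A1 was not called, at 0.21 and 0.22, and the sulfate carrier SLC26A2 fell by 0.67 in AMOT-hairpin cells.

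The sodium pump and the partner proteins of plasma membrane carriers gave 8 tested genes of 13. In AMOT-hairpin cells 3 were higher and 2 lower, beside 22% and 19% of all named genes. In YAP-hairpin cells 2 were higher and 2 lower, beside 24.3% and 19.9%. STK39, a kinase that acts on chloride cotransporters, rose by 0.42 and 0.66, and WNK1, which acts before it, by 0.45 in AMOT-hairpin cells. NHERF1, a scaffold that binds SLC9 and other carriers, fell by 0.76 and 0.71. BSG, the chaperone of lactate carriers, rose by 0.45 and 0.39 while its relative EMB fell by 0.48 and 0.52. The pump subunits ATP1B1 and ATP1B3 were not called.

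**Figure D3:**
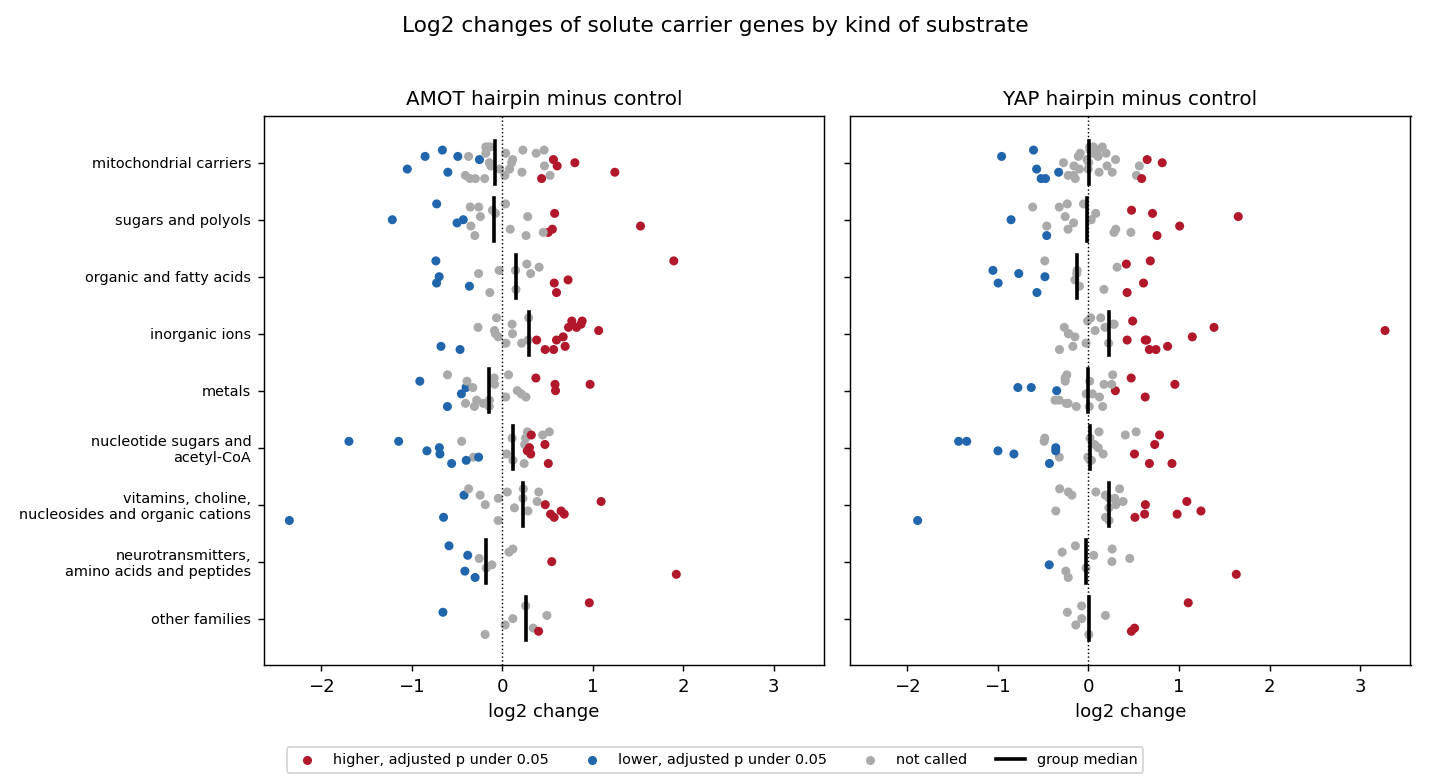
Log2 changes of the solute carrier genes in AMOT-hairpin cells and in YAP-hairpin cells against the controls, by kind of substrate, with each point a gene and the bar the group median. Red points are called higher, blue lower and grey not called; the inorganic ion group has 12 red and 2 blue points in the AMOT panel and 10 red and no blue in the YAP panel.

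Sugar carriers split within their family. SLC2A3, the high-affinity glucose carrier of neurons, had 10.09, 9.76 and 9.69 in AMOT-hairpin cells and 11.08, 11.31 and 11.27 in YAP-hairpin cells, against 9.50, 9.69 and 9.50 in the controls. YAP-hairpin cells stood above all other arrays, with a rise of 1.65 (SE 0.13, limma adjusted p = 1.8e-05), while AMOT-hairpin cells were not called against the controls. Its near-identical relative SLC2A14 may share the probe's signal, so the source of this signal is uncertain. The hairpin groups differed by -1.37 (limma adjusted p = 2.1e-04). The basal glucose carrier SLC2A1 fell by 0.46 in YAP-hairpin cells and stood at -0.30 in AMOT-hairpin cells. SLC2A11 rose in both hairpin groups, with 9.11, 9.14 and 8.95 in AMOT-hairpin cells and 8.49, 8.75 and 8.40 in YAP-hairpin cells, against 7.77, 7.21 and 7.65 in the controls. Its dimmer probe stood at 0.19 and 0.30 and was not called. The intracellular SLC2A8 fell in both, to 9.35, 9.32 and 9.0 in AMOT-hairpin cells and 9.62, 9.48 and 9.64 in YAP-hairpin cells, against 10.61, 10.13 and 10.56 in the controls. SLC2A12 fell in AMOT-hairpin cells by 0.72. Genes were grouped by family, so the 20 of the sugar and polyol families include the multivitamin carrier SLC5A6, called lower in AMOT-hairpin cells at -0.43, and the monocarboxylate carriers SLC5A8 and SLC5A12, not called. Over these 20 genes 4 were higher and 4 lower in AMOT-hairpin cells, beside 22% and 19% of all named genes. In YAP-hairpin cells 5 were higher and 2 lower, beside 24.3% and 19.9%.

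SLC6A16, an orphan of the neurotransmitter carrier family, had the largest fitted rise in AMOT-hairpin cells. It had 8.30, 8.48 and 8.30 there and 8.07, 8.10 and 8.05 in YAP-hairpin cells, against 6.65, 6.40 and 6.27 in the controls. All hairpin arrays exceeded all controls, with changes of 1.92 (SE 0.12, limma adjusted p = 5.4e-06) and 1.63 (SE 0.12, limma adjusted p = 1.2e-05). SLC6A15, a neutral amino acid carrier of the same family, gave probes of opposite sign. Its brightest probe was higher in AMOT-hairpin cells by 0.55, and another was called lower, at -1.33 there and -1.67 in YAP-hairpin cells. It was the only 1 of the 42 genes with several probes to be called both ways in AMOT-hairpin cells, although 17 of them had probes that differed in call. For SLC71A2 the brightest probe was not called and each of the other 3 was lower in both hairpin groups, by changes between -0.50 and -1.03. The creatine carrier SLC6A8 stood at 0.08 and -0.29. Of the 11 carriers of neurotransmitters, amino acids and peptides 2 were higher and 4 lower in AMOT-hairpin cells (18.2% and 36.4%, beside 22% and 19% of all named genes). In YAP-hairpin cells 1 was higher and 1 lower (9.09% and 9.09%, beside 24.3% and 19.9%). Of the 9 genes of other families 2 were higher and 1 lower in AMOT-hairpin cells (22.2% and 11.1%, beside 22% and 19%). In YAP-hairpin cells 3 were higher (33.3%, beside 24.3%) and none lower by limma (beside 19.9%), with none lower at an unadjusted p under 0.05.

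SLC13A3, a sodium-coupled carrier of dicarboxylates known from kidney, was undetected in the controls. It had 7.23, 7.25 and 7.02 in AMOT-hairpin cells and 6.0, 6.07 and 5.80 in YAP-hairpin cells, against 5.45, 5.52 and 4.86 in the controls. It was at least 2.33-fold higher in AMOT-hairpin cells and at least 1.01-fold higher in YAP-hairpin cells. The filter was passed through the hairpin arrays alone, so these differences follow in part from it and are given without a test. Of the 16 carriers of organic and fatty acids 4 were higher and 4 lower in AMOT-hairpin cells, beside 22% and 19% of all named genes. In YAP-hairpin cells 4 were higher and 5 lower, beside 24.3% and 19.9%. SLC10A4 fell in YAP-hairpin cells by 1.05, with arrays spread from 5.60 to 6.76 and its dimmer probe at -0.21, not called. SLC10A7 fell by 0.72 and 1.0, and both its other probes were called lower in each hairpin group. SLC27A5, an enzyme that activates bile acids, fell by 0.73 in AMOT-hairpin cells, a call lost under median scaling (adjusted p = 0.053).

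Of the 25 genes of nucleotide sugar and acetyl-CoA carriers, 6 were higher and 8 lower in AMOT-hairpin cells (24.0% and 32.0%, beside 22% and 19% of all named genes). In YAP-hairpin cells 5 were higher and 7 lower (20.0% and 28.0%, beside 24.3% and 19.9%). SLC33A2, formerly MFSD3, had 9.73, 9.58 and 9.62 in AMOT-hairpin cells and 9.94, 10.02 and 10.02 in YAP-hairpin cells, against 11.38, 11.10 and 11.51 in the controls. It fell 3.23-fold (log2 change -1.69, SE 0.12, limma adjusted p = 1.1e-05) and 2.54-fold (-1.34, SE 0.12, limma adjusted p = 3.5e-05), and no hairpin array reached a control. Its relative SLC33A1, the acetyl-CoA carrier of the endoplasmic reticulum, fell by 0.56 and 0.43. SLC35D3 was undetected in YAP-hairpin cells, at least 1.79-fold lower, and detected on 1 array of AMOT-hairpin cells, at a fitted change of -1.14. It passed the filter through the controls and 1 AMOT-hairpin array, so both falls follow in part from the filter. They are given without a test, and the gene is counted among the lower ones above. SLC35G1 changed by -0.83 and -1.0, SLC35D4 by -0.69 and -0.82, and SLC35B1, of the endoplasmic reticulum, by -0.69 and -0.36. SLC35G2 rose by 0.51 and 0.92. The UDP-galactose carrier SLC35A2 stood at 0.28 and 0.12 by its brightest probe, while its dimmer probe was lower, at -0.96 and -1.51.

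Zinc, copper, iron and magnesium carriers gave 4 higher and 4 lower of 24 in AMOT-hairpin cells (16.7% and 16.7%, beside 22% and 19% of all named genes). In YAP-hairpin cells 4 were higher and 3 lower (16.7% and 12.5%, beside 24.3% and 19.9%). SLC39A11, a zinc carrier, had 8.83, 8.78 and 8.87 in AMOT-hairpin cells and 8.12, 7.96 and 8.26 in YAP-hairpin cells, against 7.84, 7.85 and 7.88 in the controls. It rose by 0.97 in AMOT-hairpin cells, and the hairpin groups differed by 0.71. SLC39A10 and SLC39A1, zinc importers, fell in AMOT-hairpin cells by 0.60 and 0.45. SLC31A2, of the copper carrier family, fell there by 0.91, with 7.76, 7.80 and 7.52 against 8.33, 8.75 and 8.73 in the controls. SLC30A5, which loads zinc into the secretory pathway, fell in YAP-hairpin cells by all 4 of its probes, at -0.78, -1.19, -1.62 and -0.74. In AMOT-hairpin cells the same probes stood at -0.40, -0.18, -0.68 and -0.88, the second of them not called. The magnesium carrier family member SLC41A3 rose by 0.58 and 0.96. SLC30A1, the zinc exporter that cells induce with zinc, stood at -0.08 and 0.17 and was not called.

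Among the 21 carriers of vitamins, choline, nucleosides and organic cations 6 were higher and 3 lower in AMOT-hairpin cells (28.6% and 14.3%, beside 22% and 19% of all named genes). In YAP-hairpin cells 6 were higher and 1 lower (28.6% and 4.76%, beside 24.3% and 19.9%). SLC44A2, of the choline carrier family, had 11.25, 11.28 and 11.31 in AMOT-hairpin cells and 11.81, 11.76 and 12.03 in YAP-hairpin cells, against 10.71, 10.60 and 10.57 in the controls. The groups stood apart in that order, with rises of 0.65 and 1.24 and a difference between the hairpin groups of -0.59 (limma adjusted p = 0.0040). SLC22A17, a receptor for lipocalin, rose by 1.09 in each hairpin group, with 10.02, 10.13 and 9.80 in AMOT-hairpin cells and 9.99, 9.97 and 9.97 in YAP-hairpin cells, against 9.02, 8.65 and 9.0 in the controls. SLC22A23 rose by 0.53 and 0.98. SLC67A1, formerly SLC22A18, was counted with the other families and not among these 21. It rose by 0.96 and 1.10, with 6.53, 7.20 and 7.13 in AMOT-hairpin cells and 6.93, 7.25 and 7.10 in YAP-hairpin cells, against 6.05, 5.87 and 6.05 in the controls.

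The comparison between the hairpins picked out carriers that differed between AMOT-hairpin and YAP-hairpin cells. SLC16A9, of the monocarboxylate carrier family, had 10.71, 10.56 and 10.72 in AMOT-hairpin cells and 9.56, 9.36 and 9.56 in YAP-hairpin cells, with the controls between them at 10.18, 10.11 and 9.90. The zinc and manganese importer SLC39A8 had 11.17, 11.04 and 11.22 in AMOT-hairpin cells and 10.18, 10.17 and 10.25 in YAP-hairpin cells, with controls at 10.44, 10.64 and 10.57. SLC35B4, a UDP-sugar carrier, had 10.73, 10.65 and 10.71 in AMOT-hairpin cells and 10.15, 10.01 and 10.01 in YAP-hairpin cells, with controls at 10.35, 10.48 and 10.42. By the brightest probe of these 3 genes the controls lay between the hairpin groups with no overlap. The monocarboxylate carrier SLC16A7 had 6.56, 6.51 and 6.39 in AMOT-hairpin cells and was detected on no YAP-hairpin and no control array. It passed the filter through the AMOT-hairpin arrays alone, so its higher level there follows from the filter and is given without a test. The thiamine carrier SLC19A3 differed by 0.64. On the lower side, the nucleoside carrier SLC29A2 differed by -0.61, SLC37A3 by -0.58 and the organic cation exporter SLC47A1 by -0.84. The lysosomal exporter SLC66A1 differed by -0.71, SLC31A2 by -0.65 and SLC2A12 by -0.67. The last 3 calls, with those of SLC10A4 at 1.02 and SLC9A8 at 0.59, were lost under other settings, mostly with an AMOT-hairpin or YAP-hairpin array left out (highest adjusted p 0.098, 0.061, 0.067, 0.078 and 0.11 in the order named). SLC35B4 lost its call between the hairpin groups under median scaling (adjusted p = 0.068).

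**Figure D4:**
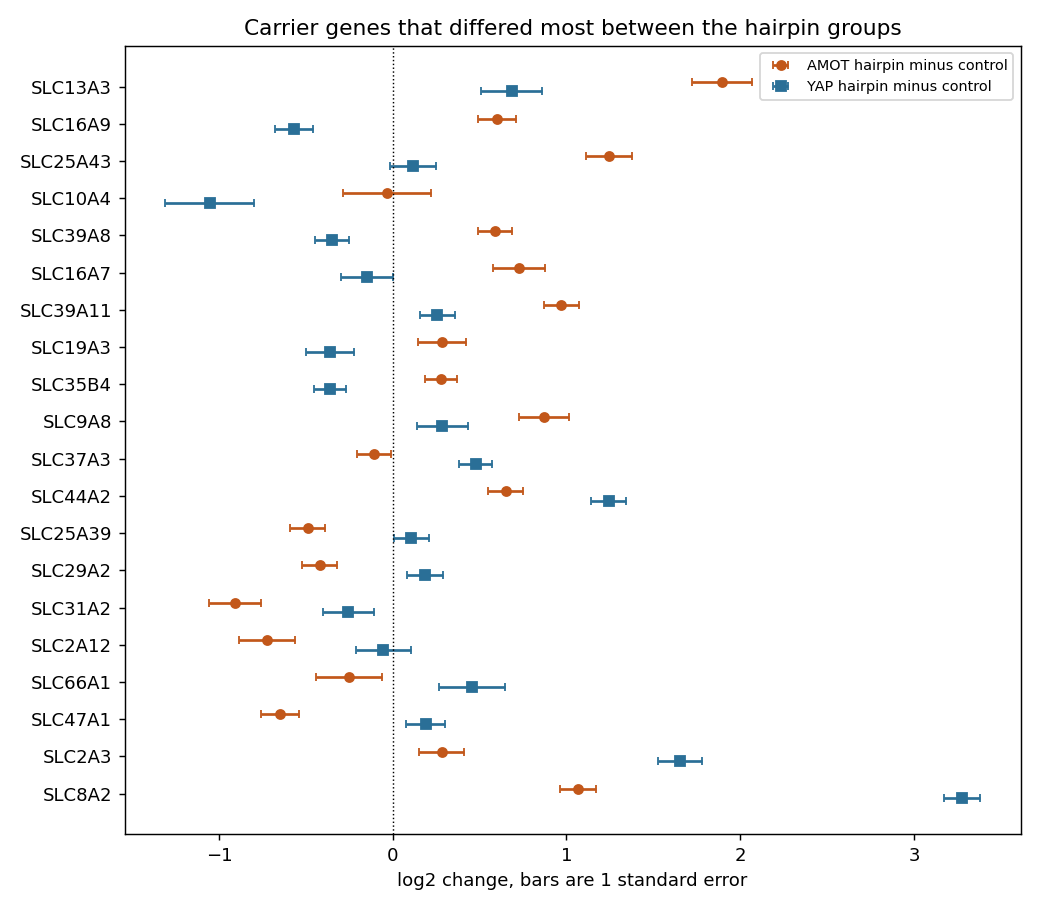
Log2 change against the controls, with 1 standard error, of the 10 carrier genes most above and the 10 most below in AMOT-hairpin cells (circles) relative to YAP-hairpin cells (squares). SLC16A9, SLC39A8 and SLC35B4 have the circle right of 0 and the square left of 0; the fitted sizes of SLC8A2, SLC13A3 and SLC16A7 depend on controls that were undetected.

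Chromosome 17 was looked at after the values were seen. Of the 11 carrier genes there 5 were lower and 1 higher in AMOT-hairpin cells, with a median of -0.45, and 3 lower and none higher in YAP-hairpin cells by limma (2 higher at an unadjusted p under 0.05), with a median of 0.08. In percent, 45.5% of these carriers were lower and 9.09% higher in AMOT-hairpin cells, and 27.3% lower in YAP-hairpin cells. Over all 689 named genes of that chromosome 30.8% were lower and 15.2% higher in AMOT-hairpin cells. In YAP-hairpin cells 20.5% were lower and 22.9% higher. Of all named genes 19% and 22% were called so in AMOT-hairpin cells, and 19.9% and 24.3% in YAP-hairpin cells. The 5 carriers lower in AMOT-hairpin cells were SLC25A11, SLC25A10, SLC25A39, SLC35B1 and SLC47A1, and SLC39A11 was the 1 higher. SLC47A1 had 10.23, 10.26 and 10.07 there and 11.06, 10.98 and 11.02 in YAP-hairpin cells, against 11.02, 10.70 and 10.77 in the controls. Without the members of chromosome 17, a choice made after the values were seen, 44 carriers were higher and 31 lower in AMOT-hairpin cells.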

How the data were processed

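Total RNA was labelled with biotin and hybridised to Illumina bead arrays. The deposited table gives, per the file headers, a linear intensity and a detection p-value per probe and array for 47231 probes, neither background-corrected nor normalized. The series matrix holds intensity values of 20062 of these probes deposited by the authors, whose scaling is not given in the sources used here; it served as an alternative. Column names were matched to sample titles.

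In R 4.3.3 with limma 3.58.1, neqc removed background from the detection p-values, added an offset of 16 and quantile-normalized the arrays to log2. Quantile normalization hides any change of total RNA per cell, and the offset shrinks changes of dim probes. In bulk RNA, fewer cells of a type and less RNA per cell cannot be told apart. One model with 3 group means was fitted to all 22375 tested probes (6 residual and 3.53 prior degrees of freedom). Limma's adjusted p was taken within each of 3 contrasts. A gene with no detected array in its dimmer group is given as "at least", against the higher of its own value and the lowest detected signal. In simulated data for AMOT-hairpin cells against controls, with 22375 probes, the fit called 84 of 100 changes of 1 and 14 of 100 changes of 0.5 on the log2 scale. Only those probes were changed there, whereas 22% and 19% of all named genes were called higher and lower in the real comparison. The adjusted p depends on that share, so these rates do not carry over to the real data. How many small changes go uncalled was not tested.

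Symbols were updated through the gene number to the GRCh38.p14 gene table; the annotation's own symbols gave the same members. Promoters were found for 160 of 190 genes. Named genes were the 10 with the largest rise and the 10 with the largest fall per contrast and a list of role genes; likeness between genes over arrays was not reported, since the arrays form 3 separate groups. Members, lists and substrate groups were chosen with earlier results of these data known. Alternatives were median scaling, cyclic loess, no background correction, an offset of 50, detection p under 0.01 on all arrays, no filter, the series matrix, the mean of a gene's probes, a replicate block and leaving out each array. The number of arrays limits precision.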

Additional observations from a re-analysis of the deposited data

Results flagged for a closer look

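SLC16A9, SLC39A8 and SLC35B4 were called higher in AMOT-hairpin cells and lower in YAP-hairpin cells against the same controls, and the difference between the hairpins passed limma's test. The log2 difference, AMOT-hairpin minus YAP-hairpin cells, was 1.17 for SLC16A9 (limma adjusted p = 2.1e-04), 0.94 for SLC39A8 (limma adjusted p = 3.3e-04) and 0.64 for SLC35B4 (limma adjusted p = 0.0016). A second probe of SLC39A8 gave 0.94 as well. No group had the 4 or more arrays needed to look for an outlying array.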

How the results depend on the processing

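Over 18 alternatives the 6 counts of carriers higher or lower stayed within 1.5 times the value reported, with these exceptions. Carriers lower in YAP-hairpin cells numbered 16 under median scaling in place of 25. Carriers higher in AMOT-hairpin than in YAP-hairpin cells numbered 19 with no background correction and 20 with the series matrix in place of 12. Carriers lower in AMOT-hairpin than in YAP-hairpin cells numbered between 11 and 30 with 1 array left out, in place of 28, the fewest without YAP-hairpin array 1 (11), with 17, 16 and 14 without AMOT-hairpin arrays 1, 2 and 3, and 18 and 16 without YAP-hairpin arrays 2 and 3. With 1 array left out, the SLC25A median ran between -0.08 and -0.01 in AMOT-hairpin cells and between -0.03 and 0.05 in YAP-hairpin cells. The median change of the carriers outside SLC25A moved under median scaling to 0.12 in YAP-hairpin cells and -0.17 between the hairpin groups. With probes averaged, SLC35A2 in YAP-hairpin cells turned to -0.69, the value of its brightest probe being 0.12, since its dimmer probe was lower. Same-numbered arrays deviated together with correlations from -0.13 to 0.10 over 9 pairs, so the numbers were not taken as pairs; with the replicate block 42 carriers were higher and 33 lower in AMOT-hairpin cells, 41 and 24 in YAP-hairpin cells and 12 and 23 between them. Of the 10 named for the largest rise or fall in each contrast, all 10 rises and 9 of 10 falls in AMOT-hairpin cells, all 10 of each in YAP-hairpin cells, and 7 of 10 each way between the hairpin groups kept their call under every alternative run. Probes near the limit of detection have uncertain sizes of change. The calls of SLC10A4 and SLC9A8 between the hairpin groups ended without AMOT-hairpin array 1 or 3 or YAP-hairpin array 1 or 2, that of SLC66A1 without AMOT-hairpin array 1 or 3 or any YAP-hairpin array, that of SLC2A12 without AMOT-hairpin array 2 or 3 or YAP-hairpin array 1, and that of SLC31A2 without AMOT-hairpin array 3 or YAP-hairpin array 1 or 2. The cause of these shifts was not tested.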
